A study of Mus musculus with 12 samples.

Results

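Genes of the proteasome were followed in dendritic cells (DCs), the cells that take up microbes and present peptides from them to T cells. The members are the protein-coding genes whose symbol is Psma, Psmb, Psmc, Psmd or Psme and a number, which gave 43 of the 54532 genes counted. This rule used names alone and no measured value, but it was chosen with earlier results of these data known. By the role of their products they are 8 alpha and 11 beta subunits of the 20S core, 17 subunits of the 19S particle (9 of its base and 8 of its lid), 3 assembly chaperones of the 19S base, 3 subunits of the PA28 activators and the activator PA200. Of the 43, 41 passed a filter on low counts. The other two were Psma8, an alpha subunit of the testis, with 0.07 to 0.565 CPM (reads scaled to a common library size), and Psmb11, the catalytic subunit of the thymic cortex, which had 5 reads in one WT treated library, 2 in one WT untreated library and none elsewhere.

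The proteasome is the protease that degrades proteins tagged with ubiquitin. Its 20S core is a barrel of stacked alpha and beta rings in which only Psmb5, Psmb6 and Psmb7 encode the cutting subunits. Cells exposed to interferons, and many immune cells at rest, build Psmb8, Psmb9 and Psmb10 products into new barrels in their place, which makes the immunoproteasome and changes the peptides handed to MHC class I. The 19S particle caps the barrel, binds and unfolds tagged proteins and removes their ubiquitin. PA28, built from the interferon-inducible Psme1 and Psme2 products, is another cap, which opens the barrel without reading ubiquitin.

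The labels gave 4 groups of 3 libraries, all from spleens of C57BL6 mice. They were SLC29A3-/- (KO) cells treated with bacteria, KO cells left untreated, wild-type (WT) treated cells and WT untreated cells. Slc29a3 encodes ENT3, a nucleoside transporter of lysosomes. Treated cells met the attenuated Salmonella typhimurium strain STmDfla for 30 min at 10 bacteria per cell (MOI) and were washed and kept for 3 h. All cells had been depleted of B, T and NK cells through CD90.2, CD45R and CD49b and then selected on CD11c. This selection is meant to leave a mixture of CD8+ conventional type 1 and SIRPα+ conventional type 2 DCs. Markers of other cells, given below, were also counted. Erythroid genes summed to 1688 to 4629 CPM in KO treated libraries, against 2.54 to 8.60 in WT treated ones. Ages are not in the labels, and neither is whether each library had its own mouse. A p-value here therefore covers library-to-library spread that could in part be technical.

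Libraries held between 15693172 and 24074596 counts, and the members took 0.442% to 0.558% of them. Number 1 of every group had Y-linked counts and at most 1 Xist count, and numbers 2 and 3 had Xist counts and no Y-linked ones. By these counts every group mixed male and female cells. The spread within a group thus includes sex, for which the main fit had no term. Slc29a3 itself had 124 to 191 CPM in KO treated, 63.5 to 94.0 in KO untreated, 197 to 233 in WT treated and 99.2 to 110.2 in WT untreated libraries. Its log2 difference between KO and WT was -0.46 ± 0.17 (SE) treated and -0.44 ± 0.17 untreated (edgeR, adjusted p = 0.081 and 0.11), so these counts do not check the KO label. The DC genes Itgax, Flt3, Zbtb46, H2-Ab1 and Cd74 were detected in every group. CPM here are scaled by TMM factors, which set typical genes equal between libraries. With library totals in place of TMM factors, the median response of all genes was -0.38 in KO and -0.35 in WT cells on the log2 scale, against -0.07 and -0.04 with TMM, so a response is stated relative to the typical gene.

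Sequences upstream of the start site are shown for the interferon-inducible genes Psmb8, Psmb9, Psmb10, Psme1 and Psme2, which the comparisons turn on, and for Psmb5 and Psmb6 as constitutive counterparts. They come from RefSeq (GRCm38.p6), in which 36 of the 43 members had a start site, and only bases outside annotated exons are printed. For Psmb8 (chr17:34198087-34198116, plus strand) and Psmb9 (chr17:34187368-34187397, minus strand) the whole window of 250 bases is exonic in GENCODE M21, and 30 bases around 1 motif are given. The others are Psmb10 (chr8:105938445-105938642, minus strand), Psme1 (chr14:55578249-55578359, plus strand), Psme2 (chr14:55591114-55591351, minus strand), Psmb5 (chr14:54618023-54618245, minus strand) and Psmb6 (chr11:70525107-70525356, plus strand). Each runs 5′ to 3′ on the gene's strand, and capitals mark a match to a motif named after them.
Psmb8: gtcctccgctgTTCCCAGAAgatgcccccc
Psmb9: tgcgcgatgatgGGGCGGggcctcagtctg
Psmb10: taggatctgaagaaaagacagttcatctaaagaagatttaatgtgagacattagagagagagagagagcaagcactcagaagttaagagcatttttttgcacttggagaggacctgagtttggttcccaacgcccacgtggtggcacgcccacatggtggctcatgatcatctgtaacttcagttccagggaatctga
Psme1: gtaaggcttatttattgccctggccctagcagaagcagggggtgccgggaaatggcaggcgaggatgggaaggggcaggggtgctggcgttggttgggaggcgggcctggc
Psme2: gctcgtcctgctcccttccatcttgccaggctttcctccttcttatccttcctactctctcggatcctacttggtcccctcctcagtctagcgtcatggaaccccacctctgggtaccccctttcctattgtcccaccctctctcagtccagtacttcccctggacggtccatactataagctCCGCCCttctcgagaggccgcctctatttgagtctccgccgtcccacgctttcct
Psmb5: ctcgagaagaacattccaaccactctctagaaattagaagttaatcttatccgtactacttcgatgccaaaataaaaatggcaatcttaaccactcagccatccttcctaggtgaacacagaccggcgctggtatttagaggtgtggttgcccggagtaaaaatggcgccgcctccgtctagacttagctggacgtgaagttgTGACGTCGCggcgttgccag
Psmb6: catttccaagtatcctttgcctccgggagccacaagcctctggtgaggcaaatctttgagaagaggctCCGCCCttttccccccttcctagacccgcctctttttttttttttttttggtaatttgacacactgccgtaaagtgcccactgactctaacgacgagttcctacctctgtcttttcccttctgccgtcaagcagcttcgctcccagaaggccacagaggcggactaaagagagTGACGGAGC
The 250 bases before the start were searched on both strands for 5 motifs. The interferon-stimulated response element (ISRE) was taken as GAAA, any 2 bases and GAAA again, and the gamma-activated site (GAS) as TTCNNNGAA. The antioxidant response element (ARE) was taken as TGACNNNGC and the GC box as GGGCGG. The last was the CCAAT box by its own letters. In Psmb8 the capitals are a GAS 97 bases upstream, the only GAS among the 36 members, against 7.02% of 32851 promoters. Those of Psmb9 are a GC box 55 bases upstream, and those of Psme2 a GC box 67 bases upstream. Psmb9 also had a CCAAT box 8 bases upstream, outside the printed stretch. From another start of Psme2, GC boxes lay 147 and 53 bases upstream, the former being the printed site. Psmb10 had none of the motifs in this window, and Psme1 had a GC box 109 bases upstream, outside the printed stretch. The capitals in Psmb5 are an ARE 47 bases upstream. Psmb6 shows a GC box 182 and an ARE 9 bases upstream. An ARE was found in 5 of the 36 members (Psmb5, Psmb6, Psmc6, Psmd12 and Psmd9), against 10.16% of all promoters, and an ISRE in 3 (Psmb3, Psmd4 and Psmd9), against 2.98%. GC boxes were in 21 members, against 32.74% of all promoters, and CCAAT boxes in 14, against 33.85%. No match overlapped another in the 7 genes printed. A match is a run of letters and not a measured site, and a missing one says only that these letters are not in this window.

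The first question was how the members responded to bacteria in each genotype. In KO cells 11 of the 41 members rose and none fell, against 11.6% and 11.5% (23% in either direction) of the 14293 genes tested. Their median log2 response was 0.25, with 34 of the 41 values above 0, and the median of all genes was -0.07. In WT cells 8 of the 41 rose and none fell, against 10.6% and 8.07% (18.7% in either direction), with a median of 0.12 and 31 values above 0, and the median of all genes was -0.04. Among the 7957 genes with a mean of at least 10 CPM, to which all 41 belong, 16.9% rose in KO and 16.3% in WT cells, so the WT share of members, 19.5%, lay near that background and the KO share was 26.8%. In 19 of the 41 members every KO treated library lay above every KO untreated one, and in 1 below (17.7% and 22.6% of all genes). In WT cells this held for 12 and 0 (19% and 19.9% of all genes).

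Of the markers of cells other than DCs, none of T, B and NK cells, monocytes, neutrophils or erythroid cells passed the test for a response. Of the red pulp macrophage genes 1 of 4 rose in each genotype, and of the plasmacytoid DC genes 2 of 4 rose in KO and 1 in WT cells. The red pulp macrophage genes did not move alike in the genotypes. Spic averaged 361 CPM treated and 151 untreated in KO cells, against 87.6 and 115 in WT cells. Adgre1 averaged 142 and 136 in KO cells, against 46.9 and 22.8 in WT cells. Of 5 genes of conventional type 1 DCs, none passed in KO cells. In WT cells 2 rose (Cd8a by 1.32 ± 0.35 and Irf8 by 0.95 ± 0.28, edgeR, adjusted p = 0.021 and 0.035). In KO cells Cd8a was at 1.03 ± 0.35 and Irf8 at 0.41 ± 0.28 (edgeR, adjusted p = 0.051 and 0.32). Neither gene's response differed between genotypes by test (edgeR, unadjusted p = 0.56 and 0.20). Of 5 genes of type 2 DCs, Irf4 rose in both, by 1.90 ± 0.39 in KO and 1.76 ± 0.39 in WT cells (edgeR, adjusted p = 0.0047 and 0.0092). Their part in the members' responses was not tested.

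The directions depend on the scaling. By library totals alone, 1 member rose (Psme2) and 7 fell in KO cells, and none rose and 14 fell in WT cells, so no other call of a response was kept, while the members' median still lay 0.32 and 0.15 log2 above that of all genes. Within genotype, libraries with the same number deviated together, and the fit with the number as a replicate block called 20 members up in KO cells (adding Psma2, Psma5, Psmb3, Psmb4, Psmb6, Psmc6, Psmd8, Psmd14 and Psme4) and 10 up and 1 down in WT cells (adding Psma3, Psmd14 and the lower Psmc1). The KO count was 2 without KO treated 2, 3 without KO untreated 3, and 5 without KO treated 3 or KO untreated 2. The WT count was 1 up without WT treated 2, WT untreated 1 or WT untreated 3, 2 without KO untreated 2, 3 without WT untreated 2, 4 without WT treated 3 or KO untreated 3, and 5 without KO untreated 1.

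**Figure D1:**
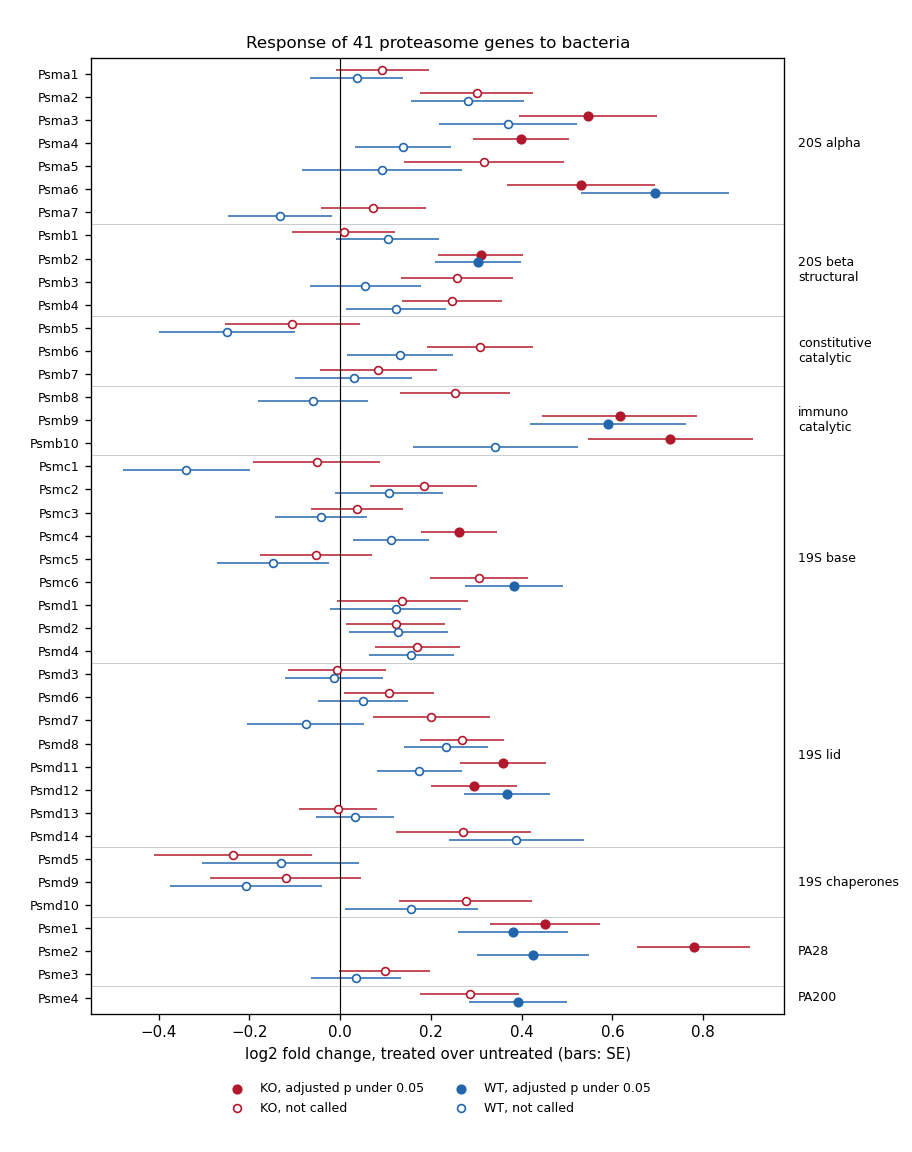
Log2 fold change of each of the 41 tested members, treated over untreated, in KO (red) and WT (blue) cells, with the SE as bars and filled points for adjusted p under 0.05 (edgeR). Members are grouped by role, and the filled points (11 in KO and 8 in WT cells) all lie right of 0 with TMM factors.

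Among the cutting subunits, Psmb9 rose in both genotypes, Psmb10 rose in KO cells, and Psmb8 and the constitutive Psmb5, Psmb6 and Psmb7 passed the test in neither. Psmb9 (chr17:34181988-34187764) encodes LMP2, which takes the place of the caspase-like subunit made by Psmb6. It had 181, 167 and 166 CPM in KO treated libraries, against 138, 106 and 91.2 CPM in KO untreated ones. WT libraries had 159, 174 and 139 CPM treated, against 101, 128 and 83.8 CPM untreated. Every treated library lay above every untreated one in both genotypes. The log2 fold change was 0.62 ± 0.17 (SE) in KO cells and 0.59 ± 0.17 in WT cells (edgeR, adjusted p = 0.021 and 0.031). The KO call was lost without KO treated 1 or 2 or KO untreated 2 or 3 (adjusted p up to 0.094). The WT call was lost without WT treated 1 or 2, WT untreated 1 or 3 or KO untreated 2 (up to 0.16). Tap1, on the other strand, shares 212 exon bases with Psmb9, or 5.79% of its exons, and rose by 0.95 in KO and 0.73 in WT cells. Tap1 had 97915 counts in all libraries together, against 28721 for Psmb9. The strand setting of the counting is not given in the sources used here, so reads from the shared bases could belong to either gene.

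Psmb10 (chr8:105935735-105938444) encodes the subunit that replaces the trypsin-like one made by Psmb7. It had 63.8, 91.7 and 118 CPM in KO treated libraries, against 50.6, 56.5 and 57.9 CPM in KO untreated ones. WT treated libraries had 57.4, 50.9 and 64.6 CPM, against 42.1, 49.5 and 44.9 CPM in WT untreated ones. KO treated libraries spread widely, with number 1 just above the untreated range, and the treated and untreated groups did not overlap in either genotype. The response was 0.73 ± 0.18 in KO cells (edgeR, adjusted p = 0.012), and this call held without any single library but not by library totals (0.40, adjusted p = 0.082). In WT cells it was 0.34 ± 0.18 (edgeR, adjusted p = 0.21, 95% interval -0.05 to 0.74).

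Psmb8 (chr17:34197721-34201454), a neighbour of Psmb9 in the MHC, encodes LMP7, which replaces the chymotrypsin-like subunit made by Psmb5. Its libraries had 195, 209 and 209.8 CPM in KO treated cells, against 193, 180.3 and 141 CPM in KO untreated cells. In WT cells they had 204, 186 and 207 CPM treated, against 189, 226 and 208 CPM untreated. The KO groups stood just apart, while the WT groups overlapped. The response was 0.25 ± 0.12 in KO cells (-0.06 by library totals), with a 95% interval of -0.01 to 0.52, and -0.06 ± 0.12 in WT cells, with an interval of -0.32 to 0.20 (edgeR, adjusted p = 0.15 and 0.78). Of its exon bases, 14.73% are shared with the antisense gene Gm20496, which had 291 counts in all libraries together against 41815 for Psmb8.

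None of the constitutive partners passed the test in either genotype. Psmb6 had 134.5, 170.1 and 146 CPM in KO treated libraries, against 127, 129 and 108 CPM in KO untreated ones. It had 145, 165 and 138 CPM in WT treated libraries, against 129.7, 135 and 144 CPM in WT untreated ones. The responses were 0.31 ± 0.12 and 0.13 ± 0.12 (edgeR, adjusted p = 0.076 and 0.47), against -0.01 and -0.19 by library totals, and with the replicate block the KO value passed (adjusted p = 0.031). Psmb7 had 61.8, 76.0 and 69.6 CPM in KO treated libraries, against 67.3, 68.6 and 59.8 CPM in KO untreated ones, and 56.7, 67.2 and 69.0 CPM in WT treated libraries, against 53.2, 66.7 and 69.0 CPM in WT untreated ones. Its groups overlapped in both genotypes, with responses of 0.08 ± 0.13 and 0.03 ± 0.13, against -0.24 and -0.29 by library totals. The gene shares 11.84% of its exon bases with Nek6 on the other strand, which had 20512 counts in all libraries together against 14048 for Psmb7. Psmb5 had 55.2, 80.2 and 80.4 CPM in KO treated libraries, against 69.7, 85.0 and 77.3 CPM in KO untreated ones, and 65.3, 70.4 and 68.7 CPM in WT treated libraries, against 69.1, 85.7 and 88.1 CPM in WT untreated ones. It was the member of the 6 with negative values in both genotypes, -0.11 ± 0.15 and -0.25 ± 0.15 (edgeR, adjusted p = 0.67 and 0.27), although without KO treated 1 the KO value was 0.06.

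**Figure D2:**
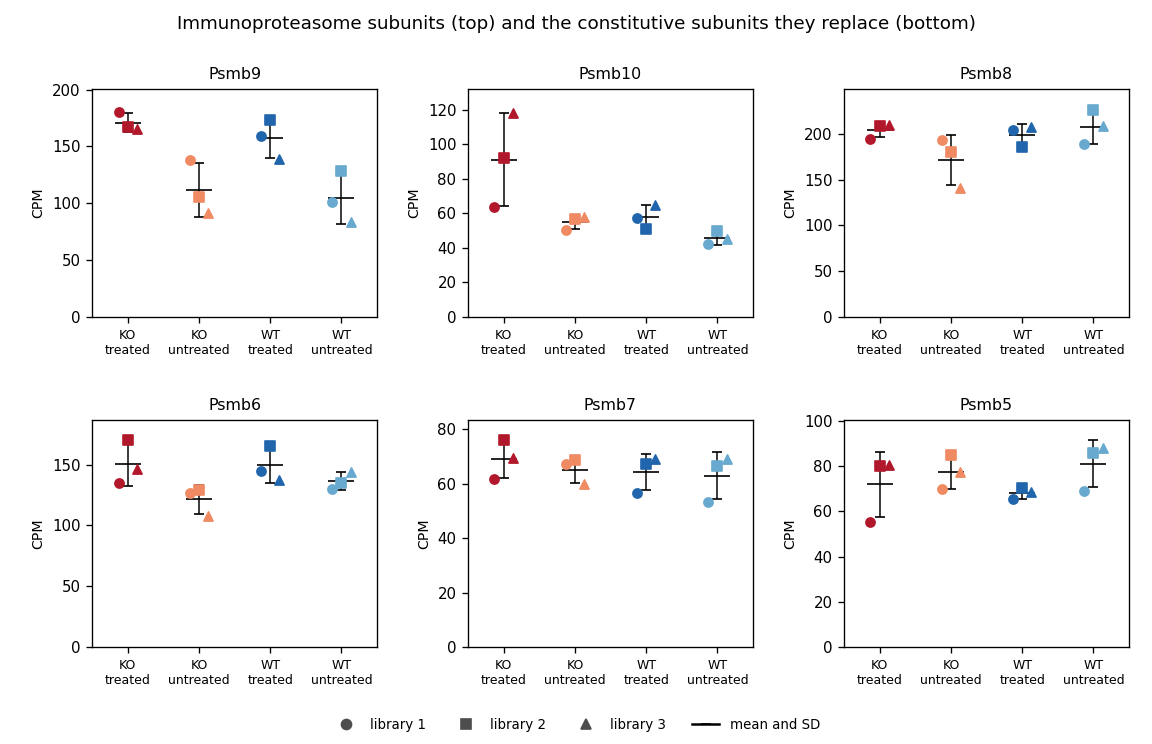
CPM (TMM-scaled) of the immunoproteasome subunits (top) and of the constitutive subunit each replaces (bottom) in every library, by group, with mean and SD of 3 libraries. Psmb9 separates treated from untreated libraries in both genotypes, whereas Psmb7 and Psmb5 overlap throughout.

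The exchange of cutting subunits can be read within a library as a ratio of counts per kilobase (kb), which needs no scaling between libraries. With the strand setting unknown, reads from bases shared with Tap1 (Psmb9) or Nek6 (Psmb7) could enter these ratios. Psmb9 over Psmb6 was 0.687, 0.502 and 0.580 in KO treated libraries, against 0.556, 0.418 and 0.432 in KO untreated ones. WT libraries gave 0.562, 0.537 and 0.515 when treated, against 0.399, 0.486 and 0.297 untreated. The treated library had the higher ratio in 6 of 6 pairs of the same genotype and number. Psmb10 over Psmb7 was 2.07, 2.42 and 3.40 in KO treated libraries, against 1.51, 1.65 and 1.94 in KO untreated ones. The WT values were 2.03, 1.52 and 1.88 treated, against 1.59, 1.49 and 1.31 untreated. The KO treated libraries stood above all 9 others, and the treated library was again higher in 6 of 6 pairs. Psmb8 over Psmb5 was 1.16, 0.856 and 0.857 in KO treated libraries, against 0.912, 0.697 and 0.599 in KO untreated ones. For WT libraries it was 1.03, 0.868 and 0.990 treated, against 0.897, 0.865 and 0.776 untreated. Groups overlapped for this ratio in both genotypes, with 6 of 6 pairs higher in the treated library.

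Over both genotypes, treatment moved the log2 ratio by 0.40 for Psmb9 over Psmb6 and by 0.46 for Psmb10 over Psmb7. Both passed an exact permutation test within genotype, two-sided over 400 arrangements, with p = 0.02 and 0.01 and 0.04 for both after adjustment over 6 tests. Leaving out 1 library took the adjusted p of Psmb9 over Psmb6 above 0.05 except without KO treated 2, KO untreated 1 or WT untreated 1, and that of Psmb10 over Psmb7 except without KO treated 1 or 2, KO untreated 1, WT treated 2 or WT untreated 1 (up to 0.08 for both, exact permutation). For Psmb8 over Psmb5 the difference was 0.29 (exact permutation p = 0.04, adjusted 0.06). A sign-flip of same-number pairs gave p = 0.0312 for all 3 ratios, the smallest this exact test can give, and 0.0624 adjusted. Compared 3 against 3 within a genotype, no exact permutation test can go below 0.1, and no ratio passed. Summed per kb, Psmb8, Psmb9 and Psmb10 made up 46.5% to 51.1% of the catalytic transcripts in KO treated libraries and 40.6% to 45.6% in KO untreated ones. In WT cells the share was 43.8% to 47.7% treated and 39.1% to 43.9% untreated. Thus by this measure the immunoproteasome genes supplied a large part of the catalytic transcripts in untreated cells too. KO treated and untreated ranges did not meet. The lengths cover all annotated exons (899 bases for Psmb5 and 3421 for Psmb7) and not the transcripts made. The size of a share or ratio therefore depends on annotation, while its change between groups does not rest on length alone.

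**Figure D3:**
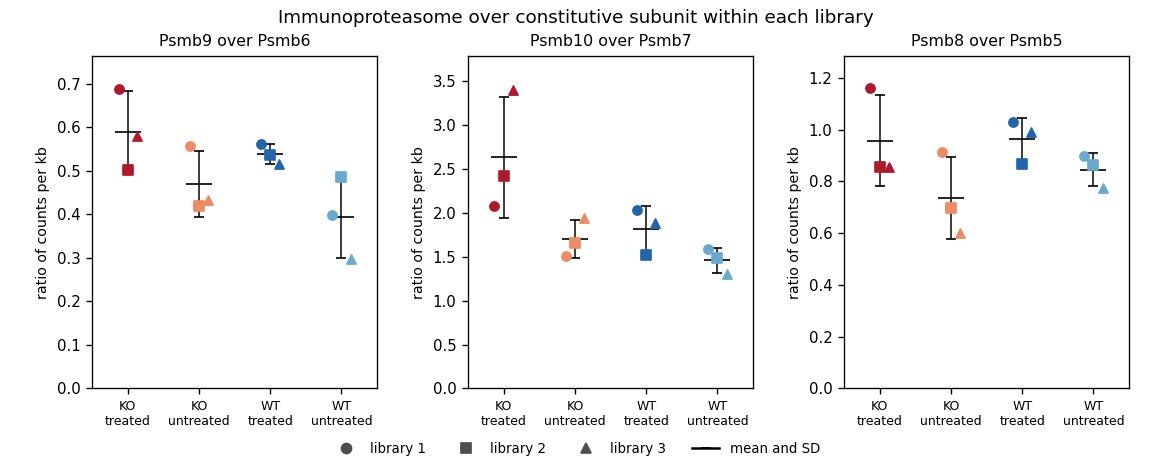
Ratio of counts per kb of each immunoproteasome gene over its constitutive counterpart within every library, by group, with mean and SD of 3 libraries; markers give the library number. Treated libraries lie above the untreated library of the same number in 6 of 6 pairs for every ratio.

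The alpha ring forms the gate of the barrel, and 3 of its 7 tested genes rose in KO cells (Psma3, Psma4 and Psma6) and 1 in WT cells (Psma6), with class medians of 0.32 and 0.14. That is 42.9% and 14.3%, against 11.6% and 10.6% of all genes (16.9% and 16.3% at a mean of at least 10 CPM), so the WT share lay near the background. Psma6 had 117, 172 and 182 CPM in KO treated libraries, against 91.4, 116 and 119 CPM in KO untreated ones. WT treated libraries had 134, 166 and 166 CPM, against 90.9, 93.8 and 104 CPM in WT untreated ones. The WT groups were clearly apart, while KO treated 1 fell inside the KO untreated range. Psma6 rose by 0.53 ± 0.16 in KO cells and by 0.69 ± 0.16 in WT cells (edgeR, adjusted p = 0.034 and 0.012), and 0.69 was the largest response of any member in WT cells. The WT call held without any single library, and the KO call was lost without KO treated 2 or 3 or KO untreated 1 or 2 (adjusted p up to 0.12). Psma3 rose by 0.55 ± 0.15 and Psma4 by 0.40 ± 0.11 in KO cells (edgeR, adjusted p = 0.021 and 0.017), and both calls were lost without KO treated 2 or 3 or KO untreated 3 (up to 0.076). Of the 4 structural beta genes, which complete the inner rings without cutting, only Psmb2 rose. Its log2 changes were 0.31 ± 0.09 in KO and 0.30 ± 0.09 in WT cells (edgeR, adjusted p = 0.033 and 0.041), and they were -0.01 and -0.02 by library totals. The Psmb2 calls were lost without any of KO treated 2 or 3 or KO untreated 1 to 3 in KO cells (up to 0.11), and in WT cells held only without KO treated 1 or WT treated 1 (up to 0.18).

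Of the 17 base and lid genes of the 19S particle, 3 rose in KO cells (Psmc4, Psmd11 and Psmd12) and 2 in WT cells (Psmc6 and Psmd12), with medians of 0.17 and 0.11. These shares, 17.6% and 11.8%, lay near those of all genes that rose, 11.6% and 10.6%, or 16.9% and 16.3% of genes with a mean of at least 10 CPM. Psmd11, a lid subunit that braces the particle against the core, rose by 0.36 ± 0.09 in KO cells (edgeR, adjusted p = 0.016), a call lost without KO treated 2 or KO untreated 3 (up to 0.075). Psmd12, another lid subunit, rose by 0.29 ± 0.09 in KO and 0.37 ± 0.09 in WT cells (edgeR, adjusted p = 0.041 and 0.018). Of the ATPase genes of the base that unfold substrates, only Psmc4 in KO cells and Psmc6 in WT cells passed the test. Their changes were 0.26 ± 0.08 and 0.38 ± 0.11 (edgeR, adjusted p = 0.042 and 0.028). Psmc6 in KO cells was at 0.31 ± 0.11 without passing (edgeR, adjusted p = 0.059). By library totals Psmc4 was at -0.05 and Psmd12 at -0.02 in KO cells. When a library was left out, Psmc4 in KO cells was called only without KO untreated 1 or WT treated 1 or 2 (edgeR, adjusted p up to 0.14). Psmc6 in WT cells was called only without WT treated 1 or a KO treated library (up to 0.12). Psmd12 was called in KO cells only without WT treated 1 or 2 or WT untreated 1 or 2 (up to 0.13), and in WT cells it lost its call without WT treated 2 or WT untreated 1 or 3 (up to 0.11). The ubiquitin receptor Psmd4 (0.17 and 0.16) and the deubiquitinase Psmd14 (0.27 and 0.39) passed in neither genotype. With the replicate block Psmd14 passed in both (adjusted p = 0.034 and 0.0069), and Psmc1 fell in WT cells (-0.34, adjusted p = 0.042). The 3 chaperones Psmd5, Psmd9 and Psmd10 passed in neither genotype, with values of -0.24, -0.12 and 0.28 in KO cells and -0.13, -0.21 and 0.16 in WT cells.

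Psme1 and Psme2, which build the PA28 of the cytoplasm, rose in both genotypes, and Psme3, which builds the nuclear PA28, passed in neither. Psme1 (chr14:55578123-55581529) had 312, 312 and 318 CPM in KO treated libraries, against 262, 220.0 and 207 CPM in KO untreated ones. Its WT values were 301, 394 and 325 CPM treated, against 252, 281 and 251 CPM untreated. Treated and untreated libraries did not overlap in either genotype. Psme1 rose by 0.45 ± 0.12 in KO and by 0.38 ± 0.12 in WT cells (edgeR, adjusted p = 0.018 and 0.046). The KO call was lost without KO treated 2 or KO untreated 2 or 3 (up to 0.085), and the WT call held in 1 of 12 fits that left out a library, that without WT treated 1 (up to 0.18).

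Psme2 (chr14:55587441-55591113) had 227, 253 and 259 CPM in KO treated libraries, against 156, 153 and 122 CPM in KO untreated ones. WT libraries had 231, 274 and 269 CPM treated, against 169, 209 and 198 CPM untreated. The groups did not overlap in either genotype, and the KO untreated libraries were the lowest of the 12. Psme2 rose by 0.78 ± 0.12 in KO cells, or 1.72-fold (edgeR, adjusted p = 0.00079), the largest response of any member there. That call held without any single library and under every alternative, library totals included (0.46, adjusted p = 0.0080). In WT cells Psme2 rose by 0.43 ± 0.12 (edgeR, adjusted p = 0.032), a call lost without WT treated 2 or 3, WT untreated 1, 2 or 3 or KO untreated 2 (up to 0.15). The copy Psme2b matches Psme2 at 99.37% of 794 aligned bases, so the split of reads between them is uncertain. Psme2b rose by 0.87 ± 0.14 in KO and 0.42 ± 0.14 in WT cells (edgeR, adjusted p = 0.00068 and 0.047). Their sum was 305, 360.1 and 363 CPM in KO treated libraries against 211, 207 and 171 CPM in KO untreated ones, and 306, 357 and 366 CPM in WT treated libraries against 228, 272 and 266 CPM in WT untreated ones.

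Psme3 had 123, 137 and 146 CPM in KO treated libraries, against 132, 121 and 126 CPM in KO untreated ones, and 119.9, 148 and 135 CPM in WT treated libraries, against 129, 132 and 132 CPM in WT untreated ones. Its groups overlapped in both genotypes, with responses of 0.10 ± 0.10 and 0.03 ± 0.10, against -0.22 and -0.29 by library totals (edgeR, adjusted p = 0.53 and 0.84). Psme4 encodes PA200, a nuclear activator known from sperm development and histone turnover. It had 130.0, 119 and 146 CPM in KO treated libraries, against 113, 102 and 109.7 CPM in KO untreated ones, and 144, 174 and 144 CPM in WT treated libraries, against 118, 113 and 122 CPM in WT untreated ones. Treated libraries lay above untreated ones in both genotypes. Psme4 rose by 0.39 ± 0.11 in WT cells (edgeR, adjusted p = 0.025), a call lost without WT treated 2, WT untreated 1, 2 or 3 or KO untreated 2 or 3 (up to 0.13). In KO cells its response was 0.29 ± 0.11, and -0.03 by library totals (edgeR, adjusted p = 0.077, and 0.040 with the replicate block).

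Levels between genes are compared per kb of the deposited gene length, so their order depends on that length. Averaged over the 12 libraries, Psme1 (130 CPM per kb) and Psme2 (119) were the highest of the 43 members, followed by Psma6 (105), Psmb4 (87.7) and Psmb5 (83.0). The order differed between groups. In KO untreated libraries Psme2 (81.4) lay below Psma6 (88.1) and Psmb5 (86.0), and in WT untreated libraries Psma6 (77.9) lay below Psmb5 (90.1) and Psmb4 (85.3). Over the 12 libraries Psmb6 (74.4) and Psmb8 (71.5) lay close together, as did Psmb9 (37.2) and Psmb10 (36.5), although Psmb9 was at 43.0 ± 4.8 and Psmb10 at 33.8 ± 4.0 in WT treated libraries (SD, n = 3). Psmb7 was at 19.1, PA200 at 15.3, and the chaperones Psmd5 (4.36) and Psmd9 (2.06) were the lowest tested. The median over the 17 base and lid genes of the 19S was 38.4 to 45.4 CPM per kb in KO treated libraries, 32.8 to 37.2 in KO untreated ones, 38.6 to 44.8 in WT treated ones and 32.1 to 40.7 in WT untreated ones. The mean of Psme1 and Psme2 over this median was 3.14 to 3.62 in KO treated libraries, against 2.49 to 3.06 in KO untreated ones. WT libraries had 3.35 to 4.10 treated, against 2.92 to 3.27 untreated. Psme3 over the same median was 1.02 to 1.23 in KO treated and 1.11 to 1.32 in KO untreated libraries, and 1.02 to 1.23 in WT treated and 1.10 to 1.37 in WT untreated ones. Taken singly, Psme2 over the median separated treated from untreated libraries in both genotypes (3.163 to 3.656 against 2.115 to 2.612 in KO cells, 3.385 to 3.821 against 2.900 to 2.990 in WT cells). Psme1 over the median overlapped in both (3.109 to 3.676 against 2.678 to 3.515 in KO cells, 3.292 to 4.383 against 2.936 to 3.551 in WT cells), as did Psme3.

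**Figure D4:**
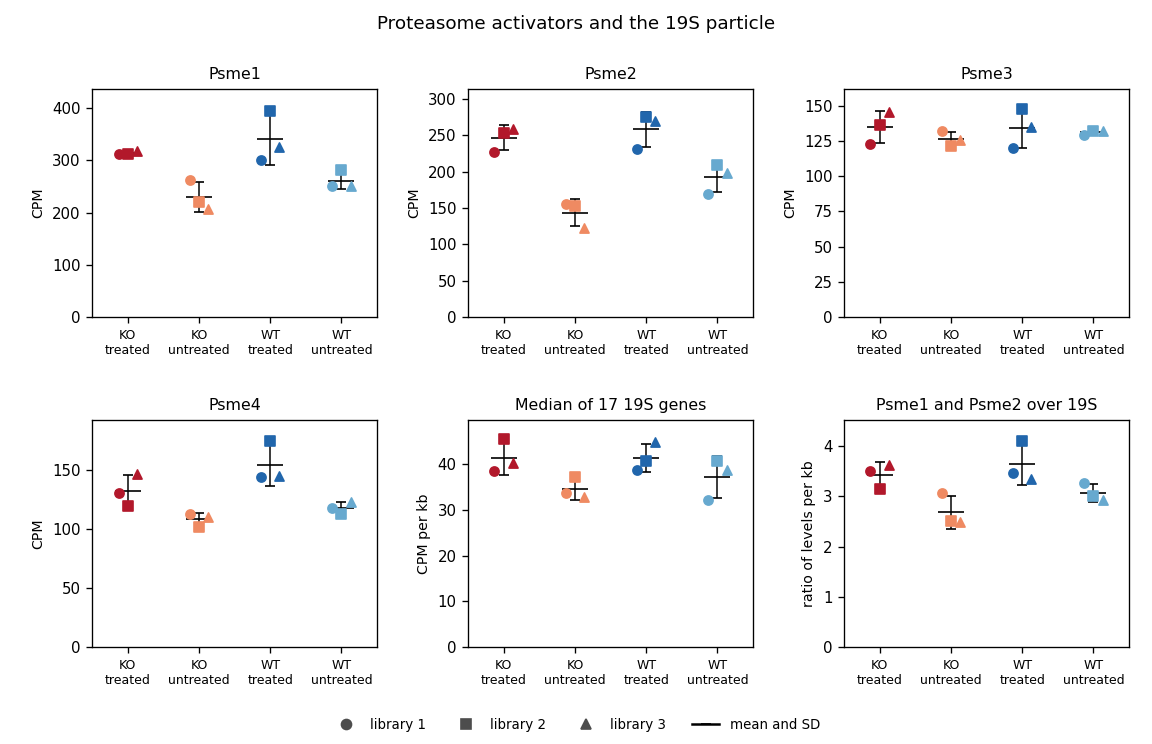
CPM of the activators Psme1, Psme2, Psme3 and Psme4, the median of 17 genes of the 19S base and lid in CPM per kb, and the mean of Psme1 and Psme2 over that median, in every library by group with mean and SD of 3 libraries. Psme1, Psme2 and Psme4 are higher in treated libraries of both genotypes, and Psme3 overlaps.

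The second question was whether the members differed between KO and WT cells. Among treated cells 1 of 41 was higher in KO (Psmb10) and none lower, against 9.21% and 4.89% (14.1% in either direction) of all genes. Among untreated cells 1 was lower (Psme2) and none higher, against 3.46% and 9.5% (13% in either direction). The members' median differences were 0.01 and -0.10, with all genes at -0.01 and 0.01. No member separated KO treated from WT treated libraries completely (15.6% of all genes were above and 13.2% below), and in untreated cells 2 members lay above and 9 below without overlap (21% and 16.4% of all genes). In both treatments the share of members called, 2.44%, lay below that of all genes.

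Psmb10 in treated cells had 63.8, 91.7 and 118 CPM in KO libraries, against 57.4, 50.9 and 64.6 CPM in WT libraries, where KO treated 1 lay within the WT range. The difference was 0.66 ± 0.18, or 1.58-fold (edgeR, adjusted p = 0.031). The call was lost without KO treated 2 or 3 or any WT treated library (up to 0.13). It was also lost in a fit of the treated groups alone (edgeR, adjusted p = 0.095). With numbers 2 and 3 alone the difference was 0.86 (edgeR, adjusted p = 0.0066). That choice was made after seeing the data and drops KO treated 1, the overlapping library, so it adds no support for the call. In untreated cells Psmb10 differed by 0.27 ± 0.18 (edgeR, adjusted p = 0.38), with KO libraries above WT libraries throughout. The ratio of Psmb10 over Psmb7 was 0.37 log2 higher in KO than in WT cells over both treatments (exact permutation p = 0.015, adjusted 0.04). Its adjusted p was above 0.05 without KO treated 3, KO untreated 2 or 3, any WT treated library or WT untreated 2 or 3 (up to 0.08). The ratios of Psmb9 over Psmb6 and Psmb8 over Psmb5 differed by 0.19 and -0.12 (exact permutation, adjusted p = 0.222 and 0.36).

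Psme2 in untreated cells had 156, 153 and 122 CPM in KO libraries, against 169, 209 and 198 CPM in WT libraries, with no overlap. The difference was -0.42 ± 0.12, or 1.34-fold lower (edgeR, adjusted p = 0.043). It was lost without KO untreated 2 or 3, WT untreated 2 or 3, KO treated 2 or WT treated 3 (up to 0.14), and was -0.33 by library totals (adjusted p = 0.080) and lost in a fit of the untreated groups alone (adjusted p = 0.054). In treated cells the values nearly met, with a difference of -0.07 ± 0.12 (edgeR, adjusted p = 0.77). The copy Psme2b differed by -0.27 ± 0.14 in untreated cells (edgeR, adjusted p = 0.24).

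Markers of other cells moved with genotype in the same libraries. Summed over 4 red pulp macrophage genes (Vcam1, Spic, Adgre1 and Cd5l), KO treated libraries held 418 to 999 CPM and KO untreated ones 362 to 676, against 157 to 169 in WT treated and 155 to 175 in WT untreated ones. All 4 were higher in KO treated and 3 in KO untreated cells. Erythroid genes summed to 1688 to 4629 CPM in KO treated and 1706 to 3679 in KO untreated libraries, against 2.54 to 8.60 in WT treated and 2.55 to 9.07 in WT untreated ones, with 4 of 4 higher in both comparisons. Of 4 neutrophil genes 2 were higher in both comparisons (sums of 54.0 to 531 and 34.9 to 402 CPM in KO, against 7.15 to 9.52 and 5.23 to 8.57 CPM in WT), as were 2 of 3 monocyte genes. Of 5 DC genes 2 were lower in KO cells in both. Their sum was 17987 to 20579 CPM in KO treated and 13496 to 19108 in KO untreated libraries, against 26813 to 28862 in WT treated and 21191 to 22614 in WT untreated ones. Of 5 genes of conventional type 1 DCs none was called in either comparison. Of 5 of type 2 DCs only Sirpa was called, higher in KO untreated than in WT untreated cells (1.43 ± 0.27, edgeR, adjusted p = 0.0055). The other 4 went the opposite way in untreated cells without passing, with Cd4 at -1.08, Irf4 at -0.83, Clec4a4 at -0.57 and Esam at -0.50. T, B and NK cell genes were called in neither comparison, and no marker was at 0 in every library. The part of these other cells in the values of Psmb10 and Psme2 was not tested, and in such bulk samples fewer cells of a type and less RNA per cell cannot be told apart.

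**Figure D5:**
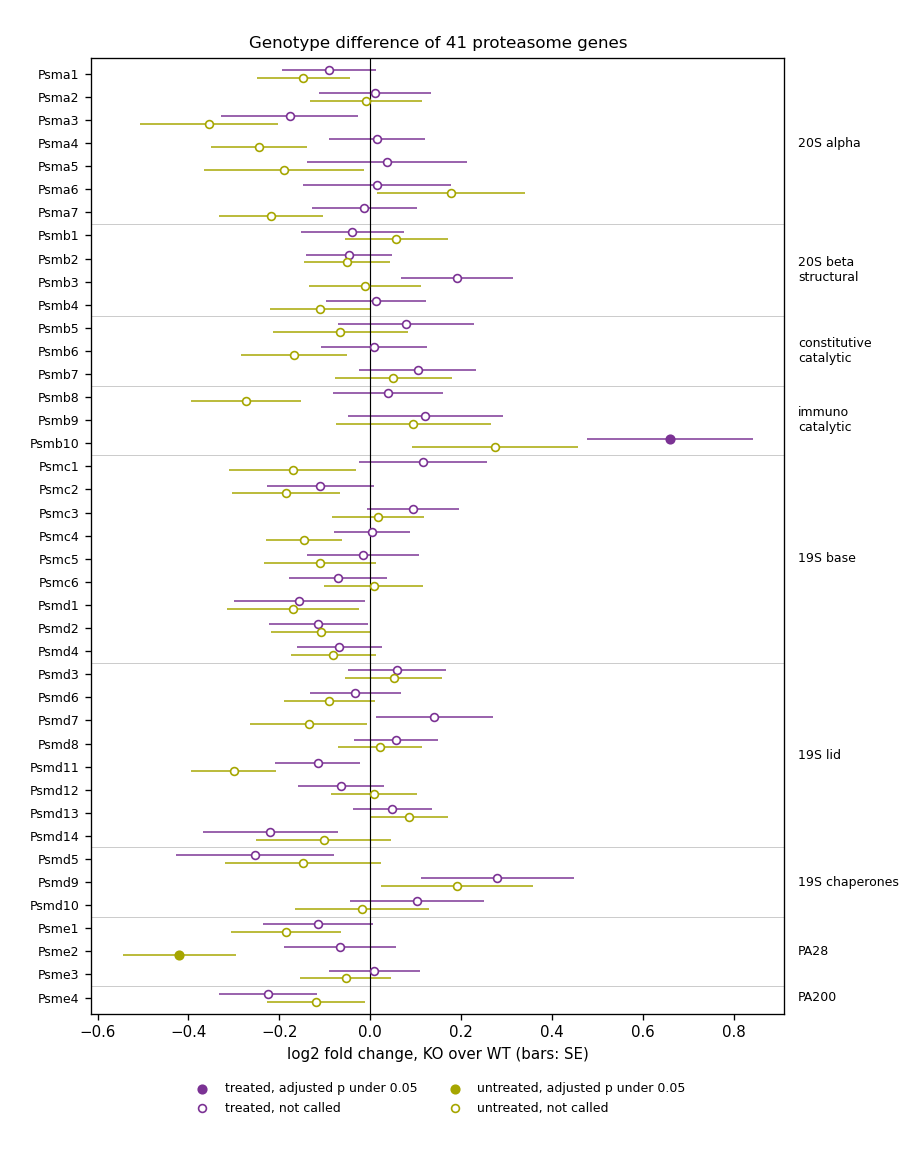
Log2 fold change of each of the 41 tested members, KO over WT, in treated (purple) and untreated (olive) cells, with the SE as bars and filled points for adjusted p under 0.05 (edgeR). Psmb10 in treated and Psme2 in untreated cells are the filled points, and the other members lie between -0.35 and 0.28.

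The third question was whether the response itself differed between genotypes. No member passed the interaction test, the KO response minus the WT response, and none had an unadjusted p under 0.05. Over all genes edgeR called none (0%), with 608 of 14293 at an unadjusted p under 0.05, and the DESeq2 Wald test called 6 and limma-voom none. With the replicate block edgeR called 41 genes, none of them a member. The largest member values were 0.39 ± 0.26 for Psmb10 (95% interval -0.17 to 0.94), 0.35 ± 0.18 for Psme2 (-0.03 to 0.73) and 0.31 ± 0.17 for Psmb8 (-0.06 to 0.68). Thus the calls that Psmb10 had in KO cells alone, or Psma6 and Psme2 in both, do not show responses that differ or are alike.

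Genes that work beside the proteasome were described by lists. Of 16 assembly and regulatory genes, 2 fell and none rose in KO cells, with a list median of -0.02, and none was called in WT cells (-0.07). The share that fell in KO cells, 12.5%, lay near the 11.5% of all genes. The fallers were Psmg3, an assembly chaperone of the core (-1.04 ± 0.23), and Ddi2, the protease that activates the proteasome gene regulator Nfe2l1 (-0.58 ± 0.13; edgeR, adjusted p = 0.0068 and 0.0063). Pomp, which matures the core, was at 0.17 and 0.05, and Nfe2l1 at -0.05 and 0.05. Of 12 genes of class I peptide loading, 6 rose in KO cells (Tapbp, Nlrc5, Tap1, Tapbpl, B2m and Tap2) and 5 in WT cells (the same without Tap2), and none fell, with medians of 0.46 and 0.36. These shares were 50% and 41.7%, against 11.6% and 10.6% of all genes (16.9% and 16.3% at a mean of at least 10 CPM). Tap1, part of the transporter that moves peptides into the endoplasmic reticulum, rose by 0.95 ± 0.17 and 0.73 ± 0.17 (edgeR, adjusted p = 0.0018 and 0.011). Tapbp, which bridges the transporter and class I, rose by 1.48 ± 0.18 and 1.06 ± 0.18 (edgeR, adjusted p = 0.00011 and 0.0017).

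Of 7 interferon transcription factors 6 rose in each genotype (85.7%, against 11.6% of all genes in KO and 10.6% in WT cells), with medians of 1.61 in KO and 1.51 in WT cells. Irf1, known to drive Psmb8, Psmb9 and Psmb10, rose by 1.62 ± 0.15 and 1.43 ± 0.14 (edgeR, adjusted p = 1.1e-05 and 4.2e-05). It was lower in KO untreated than in WT untreated cells (-0.49 ± 0.14, edgeR, adjusted p = 0.042). Thus Irf1 transcripts had responses above 1 log2 in both genotypes, while the largest of a member was 0.78, for Psme2. Among the ubiquitin genes, Ubb was higher in KO than WT treated cells by 0.50 ± 0.12 (edgeR, adjusted p = 0.016).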

How the data were processed

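Total RNA from 12 libraries of splenic DCs was sequenced on an Illumina NovaSeq with random hexamer priming, per the labels' protocols. The authors deposited raw counts per gene. The submitters' processing notes name CASAVA 1.8, HISAT2 and the build mm10. How reads were assigned to genes, with or without strand, is not given in the sources used here, and nor is the annotation. The 12 columns matched the labels, and no 2 libraries were identical. Samples were grouped by the labels' genotype and treatment.

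The counts were tested in edgeR 4.0.16 (R 4.3.3) with filterByExpr over the 4 groups (14293 genes left), TMM factors and 1 robust quasi-likelihood fit of group means to all 12 libraries. Benjamini-Hochberg adjustment ran over all genes tested in a contrast, with a threshold of 0.05. SEs were obtained from F and the log2 fold change. CPM use TMM-scaled library sizes, and CPM per kb divide them by the deposited gene length. The steps were tested on simulated data. Ratios of subunits were tested by exact permutation. Totals of 15693172 to 24074596 counts per library limit the precision of low counts, which touches Psma8 and Psmb11 here.

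Members and lists were chosen with earlier results of these data known. Values in every library are given for the 5 interferon-inducible members, the constitutive partners, Psme3, Psme4 and the 2 largest called changes per contrast, and other called members are named by class. Of 17 assembly symbols Paaf1 found no match. Some genes of the interferon and ubiquitin lists are not reported here. Of the members, 41 of 43 had the same coordinates in GENCODE M21 (GRCm38), the build of the table. Exon overlaps and the Psme2b alignment come from that annotation.

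Same-numbered libraries of a genotype deviated together (r = 0.53, 0.271 and 0.47 in KO and 0.478, 0.226 and 0.277 in WT for numbers 1 to 3). Numbers were therefore taken to pair treated with untreated libraries in the replicate block, the sign-flip and the counts of pairs. The main fit and its calls used no pairing. The labels do not state such a pairing. Across genotypes r was 0.314 and 0.323 for number 1 and 0.079 to 0.171 for numbers 2 and 3. There the block rests on shared numbers, which also separate libraries with Y-linked counts from those with Xist counts. Alternatives were DESeq2 size factors, library totals, other filters, DESeq2 1.42.0, limma-voom 3.58.1, only the groups compared and the replicate block. Others were a pseudocount of 5, each library left out and numbers 2 and 3 alone. The last, chosen after seeing the data, keeps only libraries with Xist counts.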

Additional observations from a re-analysis of the deposited data

How the results depend on the processing

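Under limma-voom no count of members called left a set factor around the main count, a rule that lets small changes pass. With 5 counts added no ratio changed its sign or its side of the threshold. The interaction stayed at 0 members under all alternatives and left-out libraries. Without a filter the members called were 7 in KO and 3 in WT cells. With only the groups compared there were 5 in WT cells, 0 between treated and 2 between untreated genotypes (Psmd11 and Psma3, both lower in KO). Between untreated genotypes there were also 2 (Psme2 and Psmd11) with DESeq2 size factors, a mean CPM of at least 1, the DESeq2 Wald test or the replicate block, and 0 by library totals. By library totals KO cells had 1 up and 7 down, and WT cells 0 up and 14 down of 14 called. The replicate block gave 20 up in KO and 1 down in WT cells. It left the ratio differences at 0.404, 0.455 and 0.367 but took their adjusted p above the threshold, and that of the Psmb10 over Psmb7 genotype difference was 0.1407. Between untreated genotypes it added Psmd11 (-0.30, adjusted p = 0.037), and it changed no other call than those given in the results. Numbers 2 and 3 alone gave 3 in WT cells. Leaving out each library gave 2 to 15 members in the KO response, 1 to 10 in the WT response (1 to 10 up, 0 to 1 down), 0 to 1 between treated and 0 to 3 between untreated genotypes (without KO treated 2, KO untreated 2 or 3, WT treated 3, or WT untreated 2 or 3, none). The ratio differences then ranged from 0.309 to 0.487 (Psmb9 over Psmb6), 0.354 to 0.533 (Psmb10 over Psmb7) and 0.213 to 0.369 (Psmb8 over Psmb5) for treatment and 0.267 to 0.446 (Psmb10 over Psmb7) for genotype. Most of these fits gave an adjusted p above the threshold.

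By library totals the responses that changed sign were, in KO cells, Psmb2 -0.007, Psmb6 -0.012, Psmb7 -0.236, Psmb8 -0.064, Psmc4 -0.054, Psmd12 -0.021, Psme3 -0.22 and Psme4 -0.03. In WT cells they were Psmb2 -0.016, Psmb6 -0.188, Psmb7 -0.289 and Psme3 -0.286. Genotype differences that changed sign were Psme2 treated at 0.023 and Psmb5 and Psme3 untreated at 0.025 and 0.032. With numbers 2 and 3 alone these were Psme3 treated at -0.002, and Psmb7 and Psmb9 untreated at -0.08 and -0.107. Sign changes also came from leaving out a library. In the response in KO the ranges were Psmb5 -0.187 to 0.062. In the response in WT the ranges were Psmb7 -0.103 to 0.111, Psme3 -0.043 to 0.108. Between treated genotypes the ranges were Psmb5 -0.013 to 0.235, Psmb6 -0.095 to 0.087, Psmb8 -0.009 to 0.071, Psme1 -0.197 to 0.004, Psme3 -0.068 to 0.083. Between untreated genotypes the ranges were Psmb7 -0.101 to 0.075, Psmb9 -0.138 to 0.227. None of these was a call in either setting, except Psmb2 in both genotypes, Psmc4 and Psmd12 in KO cells with TMM factors, and Psme3 in WT cells by library totals, which was called lower. The cause was not tested. Psma8 and Psmb11 were too shallow to test.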
